A study of Mus musculus with 12 samples.

Results

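The transcripts of 42 mouse genes for UDP-glucuronosyltransferases (Ugt) and cytosolic sulfotransferases (Sult) were examined in whole liver. They were all rows of the count table whose symbol starts with Ugt1a, Ugt2a, Ugt2b, Ugt3a or Sult plus a digit, 42 of 56923 rows, and comprised 21 Ugt and 21 Sult genes. Another 6 rows with symbols ending in -ps were left out, and these held 0 counts. Bulk RNA sequencing was carried out on livers of 12 C57BL/6J mice of wild-type genotype, 3 in each of 4 groups, all 6 weeks old when the model was begun. Each mouse, controls included, had 200 µL of 7.5% carbon tetrachloride (CCl4) in olive oil injected into the peritoneum 2 times a week over 6 weeks, which injures and scars the liver. The control group had CCl4 alone, and the low, medium and high groups also had curcumin by gavage each day for 2 weeks, at 25, 50 and 100 mg/kg. The labels do not say whether control mice were gavaged, nor the sex of the mice. Mice were housed 3 to a cage, so cage and group may coincide. No liver without CCl4 was analysed here.

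Curcumin is a polyphenol that liver and gut clear mainly by conjugation. Ugt enzymes sit in the endoplasmic reticulum and join glucuronic acid from UDP-glucuronate to phenols, bilirubin, steroids and drugs, while Sult enzymes sit in the cytosol and transfer sulfate from the donor PAPS. In humans UGT1A1 and SULT1A1 are among the enzymes that act on curcumin. The conjugates are more soluble and leave the cell through membrane transporters. The comparisons below ask whether livers of curcumin-treated mice held other amounts of the transcripts for these enzymes.

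The libraries held 36015134 to 70376474 counts. Levels are given as normalised CPM, edgeR's CPM after its TMM scaling of the library totals. Mitochondrially encoded transcripts took 58.6% to 64.2% of the counts in control livers, 43.0% to 64.1% in low, 48.3% to 60.2% in medium and 30.3% to 64.7% in high. Low 3, medium 1, high 1 and high 3 stood apart with under 50%. In these 4 libraries the summed level of 8 hepatocyte markers (Alb, Apoa1 and others) was 27600 to 50200 normalised CPM, against 4930 to 12800 in the other 8, so liver identity was present in all. In bulk tissue, fewer cells of a type and less RNA per cell cannot be told apart.

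The Ugt1a genes share one locus on chromosome 1, where each gene has its own initial exon spliced to a common set of later exons. In the GENCODE M21 coding sequences of all 9 genes the last 735 bases, from the common exons, were identical, and the gene-specific part held 849 to 870 bases. The bases across that splice are shown for 6 genes because they show where a read stops being specific to a gene. Each line gives the last 30 coding bases of the gene's own exon in lower case and the next 20, from the common exons, in capitals.
Ugt1a1: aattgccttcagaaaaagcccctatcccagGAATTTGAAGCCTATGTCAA
Ugt1a6a: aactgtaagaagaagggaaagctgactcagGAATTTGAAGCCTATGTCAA
Ugt1a6b: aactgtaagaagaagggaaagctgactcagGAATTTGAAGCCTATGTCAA
Ugt1a7c: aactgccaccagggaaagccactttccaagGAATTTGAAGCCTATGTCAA
Ugt1a9: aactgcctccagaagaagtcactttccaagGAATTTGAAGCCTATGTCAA
Ugt1a10: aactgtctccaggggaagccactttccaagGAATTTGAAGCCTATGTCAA
The Ugt1a6a and Ugt1a6b lines are the same, and over their whole coding sequences these genes were 98.4% identical. One annotated Ugt1a7c transcript, Ugt1a7c-202, has a coding sequence of 1593 bases identical to that of Ugt1a6a. The sources used here do not give how the deposited counts treated reads in the common exons or reads matching more than 1 gene, so every single Ugt1a row, Ugt1a1 included, is uncertain and the sum over the locus is given beside them.

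Of the 42 genes, 32 passed the filter on low counts (18 Ugt and 14 Sult) and entered the test, and 27 had a count in every library. Sult1c1, Sult6b1, Sult6b2 and Ugt2a2 had 0 counts in all libraries. The remaining 6 had 3 to 41 counts over all libraries: Sult2a3, Sult2b1 (a cholesterol sulfotransferase), Sult3a2, Sult4a1 (a mainly neuronal form), Ugt1a8 and Ugt2a1 (an olfactory form). Per kilobase of transcript, the highest median level was that of Sult1a1, the main phenol sulfotransferase, at 130 normalised CPM per kilobase. It was followed by Ugt2b36 at 95.0, Ugt1a1 at 76.6, Sult2a8 at 71.4 and Ugt2b5 at 68.5 on the same scale. The ranges over the 12 livers of these 5 genes overlapped (98.5 to 219 for Sult1a1, 60.4 to 107 for Ugt2b36, 57.6 to 99.3 for Ugt1a1, 46.5 to 114 for Sult2a8 and 38.0 to 146 for Ugt2b5), so their order is not fixed. Sult1d1, which in the mouse sulfates catecholamines, and Ugt2b34 came next at 29.9 and 16.3 normalised CPM per kilobase.

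**Figure D1:**
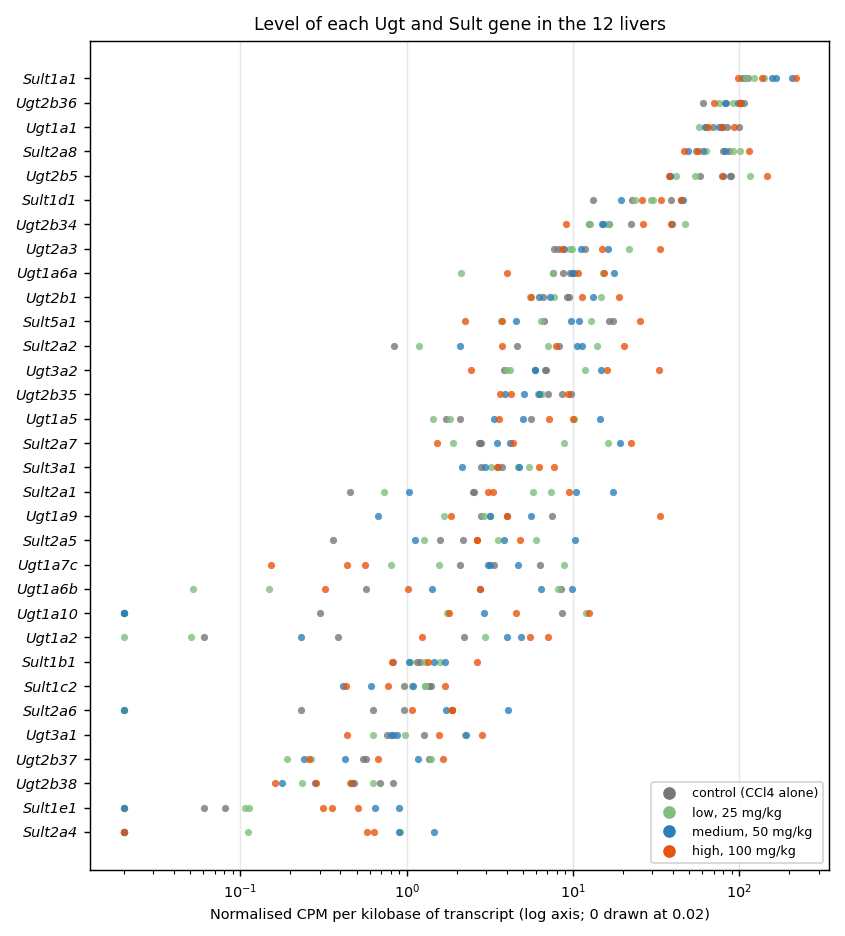
Level of the 32 tested genes in each of the 12 livers, in normalised CPM per kilobase of transcript on a log axis, 1 point per liver coloured by group, genes sorted by their median. Sult1a1, Ugt2b36, Ugt1a1, Sult2a8 and Ugt2b5 are at the top, and Ugt1a10, Ugt1a2, Sult2a6 and Ugt1a6b spread the most along the axis, on which values of 0 are drawn at 0.02.

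No gene of either family passed an adjusted p of 0.05 at any dose: 0 of 32 tested at 25, 50 or 100 mg/kg against control, 0 for the 3 doses together against control, and 0 in the slope on dose. The background was the same, with 0 of 16839 genes (0%) called in each of these 5 comparisons by edgeR's quasi-likelihood test. At an unadjusted p under 0.05 there were 1, 6 and 6 of the 32 genes in low, medium and high (3.12%, 18.8% and 18.8%), against 5.99%, 5.58% and 12.8% of all tested genes. Sult2a4, which had 0 counts in control livers, was among them at each dose. Sult1e1, with at most 5 counts in any control liver, was among them in medium and high. Both genes passed the filter on low counts only through curcumin livers. For the 3 doses together there were 3 (9.38%, against 9.37% of all genes), Sult2a4 again among them. For the slope on dose there were also 3 (9.38%, against 11.0%). DESeq2 called 42, 89 and 172 of the 16839 genes in low, medium and high. Of the 32 genes it called 1, Ugt1a7c at the high dose. The values below therefore describe genes and are not calls unless a call is stated. With 3 livers per group the groups did not overlap for 1 of the 32 genes in low, 5 in medium and 6 in high (3.12%, 15.6% and 18.8%), against 13.8%, 14.0% and 13.0% of all tested genes. Sult1e1 is among those in high.

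**Figure D2:**
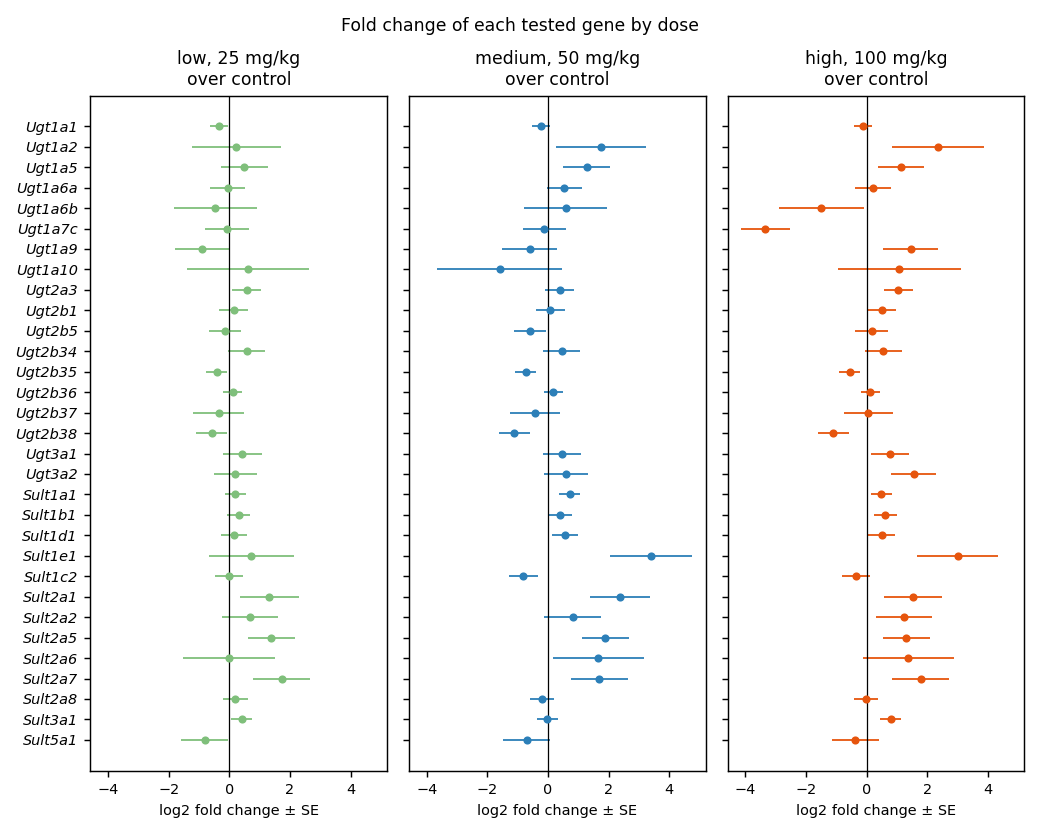
Fitted log2 fold change over control with its standard error (bars) for 31 tested genes at each dose, with Sult2a4 left out because its control livers held 0 counts. No gene passed the test. Ugt1a7c at the high dose (-3.34) lies farthest to the left. Sult1e1 at the medium dose (3.40), with at most 5 counts in any control liver, lies farthest to the right.

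Ugt1a1, the enzyme that conjugates bilirubin, carried 53.2% to 79.5% of the counts of its locus and was among the steadiest of the genes, with a highest-to-lowest ratio of 1.72 over the 12 livers. It stood at 188, 154 and 221 normalised CPM in control livers, 128, 140 and 176 in low, 167, 176 and 139 in medium and 174, 206 and 144 in high livers. All dose groups overlapped with control. The fitted log2 fold changes were -0.35 ± 0.30 in low, -0.22 ± 0.30 in medium and -0.11 ± 0.30 in high (SE, adjusted p = 0.879, 0.997 and 0.899 by edgeR); the last 2 turned positive, 0.26 and 0.54, when library totals were used without TMM.

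Ugt1a7c, a form known mainly from the gut in rodents, had the smallest p of all 32 genes at the high dose. It stood at 10.9, 20.4 and 6.76 normalised CPM in control livers, 28.6, 2.6 and 5.05 in low, 9.91, 10.2 and 15.0 in medium and 1.41, 0.493 and 1.81 in high livers. Every high liver lay below every control, low and medium liver. The difference of high from control was -3.34 ± 0.80 on the log2 scale (SE, adjusted p = 0.32 by edgeR) and -3.38 ± 0.74 by DESeq2, with an adjusted p of 0.00411 there. Without the 4 libraries under 50% mitochondrial counts the edgeR difference was -4.68. That leaves 1 high liver, high 2, with 21 counts on Ugt1a7c. With library totals in place of TMM the difference was -2.52 (adjusted p = 0.347 by edgeR), where the median of all genes was 0.71. The slope over 100 mg/kg was -3.31 ± 1.04 (adjusted p = 0.412 by edgeR) and -3.39 ± 0.78 by DESeq2 (adjusted p = 0.0112). Low and medium livers gave -0.08 ± 0.72 and -0.12 ± 0.72 (adjusted p = 0.986 and 0.997 by edgeR). As a share of the locus, Ugt1a7c held 0.432%, 0.191% and 0.806% in high livers, against 4.59%, 8.95% and 2.26% in control livers.

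The sum over the locus overlapped between control and every dose group. Over its 9 rows it averaged 255 ± 38.2 normalised CPM in control livers, 213 ± 26.3 in low, 247 ± 11.5 in medium and 270 ± 51.8 in high livers (SD, n = 3 each), and the highest of the 12 livers was 1.78 times the lowest. The smaller rows moved far more between livers of the same group. Ugt1a6b, one of a pair that conjugates small planar phenols, had 0.117, 0.335 and 18.3 normalised CPM in the 3 low livers, and its 12 livers spanned 189-fold. Ugt1a9 reached 72.8 normalised CPM in high 1, where it was 22.3% of the locus, and lay between 1.47 and 16.5 in the other 11 livers. Ugt1a10 was at 0 in 4 livers and at 27.9 normalised CPM in high 2. Ugt1a6a was steadier, at 19.6 ± 2.24 normalised CPM in control livers, 18.8 ± 14.9 in low, 28.4 ± 9.96 in medium and 22.7 ± 12.9 in high livers (SD, n = 3 each). Ugt1a2 and Ugt1a5 gave 2.36 ± 1.51 and 1.13 ± 0.77 at the high dose (log2 ± SE, adjusted p = 0.501 and 0.521 by edgeR).

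**Figure D3:**
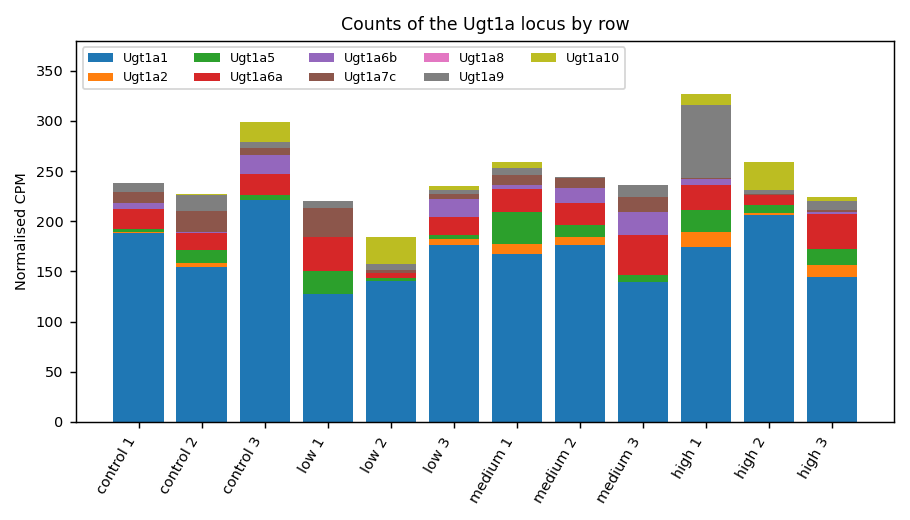
Normalised CPM of the 9 Ugt1a rows stacked for each of the 12 livers, control on the left and rising dose to the right. Ugt1a1 (blue) is the largest part of every bar, the bars span 184 to 326, and the Ugt1a7c part (brown) is thinnest in the 3 high livers.

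The Ugt2 genes, which conjugate steroids and many drugs, lie on chromosome 5 together with Sult1b1, Sult1d1 and Sult1e1. The 7 Ugt2b rows summed to 408 ± 87.6 normalised CPM in control livers, 426 ± 171 in low, 387 ± 110 in medium and 463 ± 178 in high livers (SD, n = 3 each). Ugt2b36, the most abundant, lay between 114 and 201 normalised CPM with a log2 difference of 0.12 ± 0.32 at the high dose (adjusted p = 0.888 by edgeR). Ugt2b35 stood at 32.9, 23.8 and 28.9 normalised CPM in control livers, 21.2, 20.7 and 21.8 in low, 20.9, 13.2 and 17.0 in medium and 31.5, 14.2 and 12.3 in high livers. All low and all medium livers were below all controls, while high 1 was as high as controls. Its log2 differences were -0.42 ± 0.34, -0.74 ± 0.34 and -0.56 ± 0.34 in low, medium and high (SE, adjusted p = 0.876, 0.891 and 0.478 by edgeR).

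Ugt2b38 was scarce, at 1.56, 1.3 and 0.914 normalised CPM in control livers, 0.858, 0.447 and 1.18 in low, 0.883, 0.337 and 0.529 in medium and 0.88, 0.305 and 0.539 in high livers. All medium and all high livers were below all controls. The log2 differences were -0.58 ± 0.51, -1.11 ± 0.51 and -1.10 ± 0.51 in low, medium and high (SE, adjusted p = 0.876, 0.892 and 0.39 by edgeR). The high value was -1.98 with the mitochondrial share in the fit. With library totals in place of TMM it was -0.3, where the median of all genes was 0.71. Its coding sequence was 97.0% identical to that of Ugt2b5, whose median level per kilobase was 149 times as high, so some of its counts may be shared. Ugt2b5 itself stood at 163, 108 and 165 normalised CPM in control livers, 101, 77.1 and 216 in low, 148, 71.2 and 70.8 in medium and 272, 70.7 and 146 in high livers, and the groups overlapped at each dose.

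Ugt3a1 and Ugt3a2 encode enzymes that in humans use other sugar donors, such as UDP-N-acetylglucosamine and UDP-glucose. Ugt3a2 stood at 15.8, 16.1 and 8.99 normalised CPM in control livers, 9.75, 9.36 and 27.7 in low, 34.5, 13.8 and 13.7 in medium and 76.4, 5.66 and 37.2 in high livers. The high group held both the highest and the lowest of the 12 livers. Its slope over 100 mg/kg was 1.59 ± 0.61 (SE, adjusted p = 0.434 by edgeR), 0.73 without high 1 and -0.54 once the mitochondrial share entered the fit. For Ugt2a3 the same slopes were 0.92 ± 0.43 (adjusted p = 0.453 by edgeR), 0.24 and -0.12.

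Among the phenol and amine sulfotransferases, Sult1a1 stood at 146, 139 and 133 normalised CPM in control livers, 182, 158 and 141 in low, 203, 213 and 266 in medium and 127, 282 and 177 in high livers. All medium livers were above all controls, and the high group held both the lowest and the highest liver of all. The log2 differences were 0.20 ± 0.34, 0.71 ± 0.34 and 0.48 ± 0.34 in low, medium and high (SE, adjusted p = 0.938, 0.917 and 0.534 by edgeR). Sult1d1 averaged 60.1 ± 31.2 normalised CPM in control livers, 67.2 ± 9.0 in low, 88.6 ± 36.2 in medium and 84.4 ± 22.4 in high livers (SD, n = 3 each), with overlap at every dose. Sult3a1, an amine sulfotransferase, gave 6.55, 3.64 and 8.05 normalised CPM in high livers, against 3.9, 2.95 and 3.72 in control livers. High 2 lay within the controls and the log2 difference was 0.79 ± 0.35 (SE, adjusted p = 0.386 by edgeR). The difference was 0.046 without the 4 libraries under 50% mitochondrial counts, which leaves high 2 as the only high liver.

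Sult1e1, the oestrogen sulfotransferase, was near the detection limit. It had 4, 5 and 0 counts in control livers, 0, 5 and 12 in low, 52, 0 and 72 in medium and 42, 27 and 28 in high livers. With so few control counts it passed the filter on low counts only through curcumin livers, so its differences could hardly come out lower. All high livers lay above all controls, at 0.389, 0.634 and 0.444 normalised CPM in high and 0.101, 0.0755 and 0 in control livers. Medium 2 had no count while medium 1 and medium 3 had the most of all. The log2 differences were 3.40 ± 1.36 in medium and 3.00 ± 1.35 in high (SE, adjusted p = 0.809 and 0.388 by edgeR), and without medium 3 the medium value was 2.73.

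The Sult2a genes encode hydroxysteroid sulfotransferases that act on steroids and bile acids, and in mice several of them are higher in female than in male liver. Sult2a1 to Sult2a6 are close copies, with coding sequences 87.6% to 97.9% identical over their 15 pairs, so the 6 rows were also summed. The sum was 11.5, 8.57 and 1.69 normalised CPM in control livers, 25.0, 16.8 and 3.08 in low, 42.8, 3.78 and 25.1 in medium and 32.2, 13.8 and 10.3 in high livers. Control 3, low 3 and medium 2 were the lowest, and the highest liver exceeded the lowest 6.8-fold in control, 8.12-fold in low, 11.3-fold in medium and 3.13-fold in high.

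Sult2a4 had 0 counts in all 3 control livers. It therefore passed the filter on low counts only through curcumin livers and could only come out higher with curcumin. It had 23, 0 and 10 counts in low, 93, 0 and 57 in medium and 68, 0 and 36 in high livers. In each dose group replicate 2 was therefore without a count, like the controls. With 3 counts over the control group taken as a floor, the pooled level of the low livers was 10.9 times that floor. In medium it was 38.8 times and in high 24.5 times the floor. These ratios do not hold for single livers. Without low 1 the low ratio was 3.97 and without low 3 it was 18.8. The medium ratio was 22.1 without medium 1 and 58.5 without medium 2. The floor allows for counting error in the control livers only. The ratios leave out the counting error of the curcumin livers and the spread between livers, so they are not lower bounds. The adjusted p by edgeR was 0.813, 0.726 and 0.38 in low, medium and high. Sult2a5 had 6.28, 3.72 and 1.33 normalised CPM in low, 10.7, 1.18 and 4.05 in medium and 5.06, 2.77 and 2.76 in high livers, against 2.27, 1.65 and 0.379 in control livers. The high group lay above control, and the low and medium groups overlapped with it. Its log2 differences were 1.38 ± 0.78, 1.89 ± 0.78 and 1.31 ± 0.77 in low, medium and high, and those of Sult2a1 were 1.31 ± 0.97, 2.39 ± 0.99 and 1.54 ± 0.96 (SE, adjusted p of 0.469 or more by edgeR). Without medium 1 the medium values were 0.87 for Sult2a5 and 1.65 for Sult2a1.

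**Figure D4:**
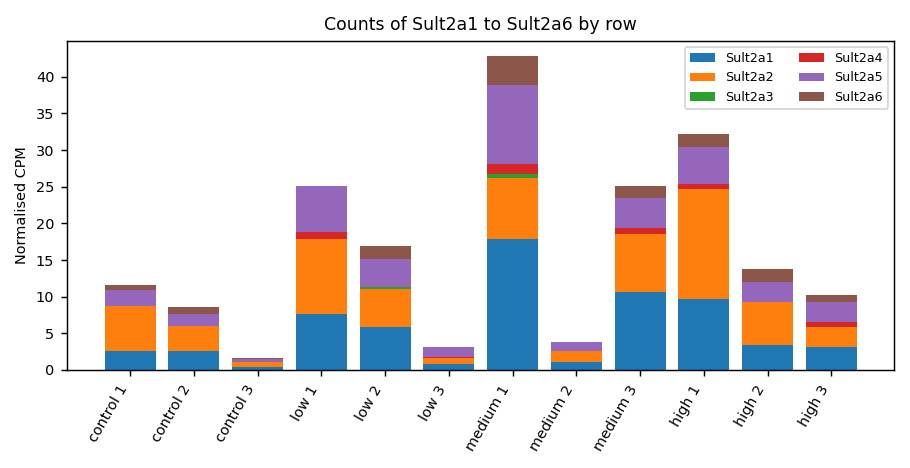
Normalised CPM of Sult2a1 to Sult2a6 stacked for each of the 12 livers, control on the left and rising dose to the right. The bars span 1.69 in control 3 to 42.8 in medium 1, and the 3 medium bars alone span 3.78 to 42.8.

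Sult2a7 and Sult2a8 are more distant, Sult2a8 having at most 73.2% coding identity to the 6 copies. Sult2a8, which in the mouse sulfates bile acids, was the dominant Sult2a row at 158 ± 37.0 normalised CPM in control livers, 182 ± 42.2 in low, 137 ± 36.5 in medium and 155 ± 77.8 in high livers (SD, n = 3 each). Sult2a7 was at 2.62, 2.57 and 2.61 normalised CPM in control livers, 1.79, 8.33 and 15.3 in low, 18.0, 3.92 and 3.27 in medium and 21.1, 1.43 and 4.12 in high livers. The controls were nearly equal, and medium livers all lay above them. The log2 differences were 1.72 ± 0.94, 1.69 ± 0.94 and 1.78 ± 0.94 in low, medium and high (SE, adjusted p = 0.829, 0.997 and 0.429 by edgeR). The low value was 0.96 without low 3 and 1.05 with the mitochondrial share in the fit.

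Over the 32 tested genes the median log2 difference was 0.20 in low, 0.42 in medium and 0.57 in high, against 0.01, 0.02 and 0.03 over all 16839 genes. Fitted values were above 0 for 20, 20 and 24 of the 32 genes (62.5%, 62.5% and 75.0%), against 51.1%, 51.9% and 52.2% of all genes. Sult2a4, with 0 counts in control livers, could only lie above 0 and is among them. Sult1e1, tested only through curcumin livers, is among them at each dose as well. With Sult2a4 set at its ratio to a control floor of 3 counts the medians were unchanged. With the mitochondrial share in the fit the medians were -0.02, -0.05 and -0.08. The share itself averaged 61.2% in control livers, 56.9% in low, 54.7% in medium and 45.7% in high. Because share and dose went together, this fit cannot fully tell them apart. Without the 4 libraries under 50% mitochondrial counts, an alternative chosen after seeing the data, they were 0.04, 0.03 and -0.37. The medians are a description of genes that share livers, with no test. All 8 hepatocyte markers tested had fitted values above 0 at each dose, with medians of 0.73, 0.36 and 1.45 in low, medium and high. Their summed level was 6180 to 12800 normalised CPM in control livers, 5900 to 35800 in low, 7190 to 27600 in medium and 4930 to 50200 in high. All 6 Kupffer cell markers were below 0 (medians -1.18, -1.0 and -0.87), with a summed level of 57.3 to 136 normalised CPM in control livers, 35.3 to 47.8 in low, 39.9 to 51.2 in medium and 43.5 to 53.5 in high. Of 7 leukocyte markers 6 were below 0 at each dose (medians -1.20, -0.83 and -1.13). No marker passed, and their part in the medians was not tested.

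The share of mitochondrially encoded counts differed between livers of the same group, so each gene was also fitted on this share within groups. Here 14 of the 32 genes passed (43.8%), against 28.2% of all tested genes. In 12 of them the level fell as the share rose (37.5% of the 32, against 15.7% of all genes), and in 2 it rose (6.25%, against 12.5%). With library totals in place of TMM, 19 of the 32 genes fell and 1 rose, against 10414 and 59 of all genes. The steepest among those that fell were Sult2a7 at -1.07 ± 0.23, Ugt3a2 at -1.01 ± 0.10, Ugt2b37 at -0.89 ± 0.26, Ugt3a1 at -0.81 ± 0.11 and Ugt2b34 at -0.74 ± 0.10 (log2 per 10 percentage points ± SE, adjusted p = 0.00641, 5.1e-05, 0.0227, 0.000167 and 0.000147 by edgeR). Ugt2a3, Ugt2b1, Ugt2b5, Ugt2b38, Sult2a8, Sult3a1 and Sult1b1 made up the rest. Sult5a1 rose by 0.94 ± 0.13 and Sult1a1 by 0.26 ± 0.08 (log2 per 10 percentage points ± SE, adjusted p = 0.00026 and 0.0227 by edgeR), and Sult1a1 reversed to -0.26 with library totals in place of TMM.

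After TMM, Sult5a1 stood at 8.55, 14.2, 14.1 and 17.2 normalised CPM in high 1, high 3, low 3 and medium 1, against 24.4 to 96.7 in the other 8 livers. All 4 of these livers had curcumin, while the other 8 include the controls. With library totals in place of TMM the slope of Sult5a1 was smaller, at 0.43 (log2 per 10 percentage points, adjusted p = 0.0198 by edgeR). Ugt2b34 gave 118, 80.6, 144 and 120 normalised CPM in the same 4 livers and 27.7 to 67.9 in the other 8. Ugt1a1 had a slope of -0.0019 ± 0.09 and Ugt2b36 of -0.03 ± 0.09 (log2 per 10 percentage points ± SE, adjusted p = 0.991 and 0.842 by edgeR), so neither of these abundant genes gave a call. With library totals both were called, Ugt1a1 at -0.52, where the median of all genes was -0.53. All 8 hepatocyte markers tested fell with the share (median -0.86), as did 5 of 8 stellate cell and fibroblast markers, while 0 of 6 Kupffer cell markers passed. Of 8 pericentral hepatocyte markers 4 fell and 1 rose (median -0.23), and of 8 periportal ones 2 fell and 0 rose (median -0.04). The part of these markers in the result was not tested. Without the 4 libraries under 50%, where the share spans 55.5% to 64.7%, 0 of the members and 1 gene passed. Several slopes were nonetheless of similar size there, at -0.88 for Ugt3a2, -0.92 for Ugt2b34, -0.69 for Ugt3a1 and 1.00 for Sult5a1, while Sult2a7 was at -0.09 and Ugt2b37 at 0.48 (log2 per 10 percentage points, adjusted p of 0.952 or more by edgeR). The calls among the 32 genes also dropped to 7 without high 2, to 9 without high 1 or without medium 1, and to 10 without low 1.

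**Figure D5:**
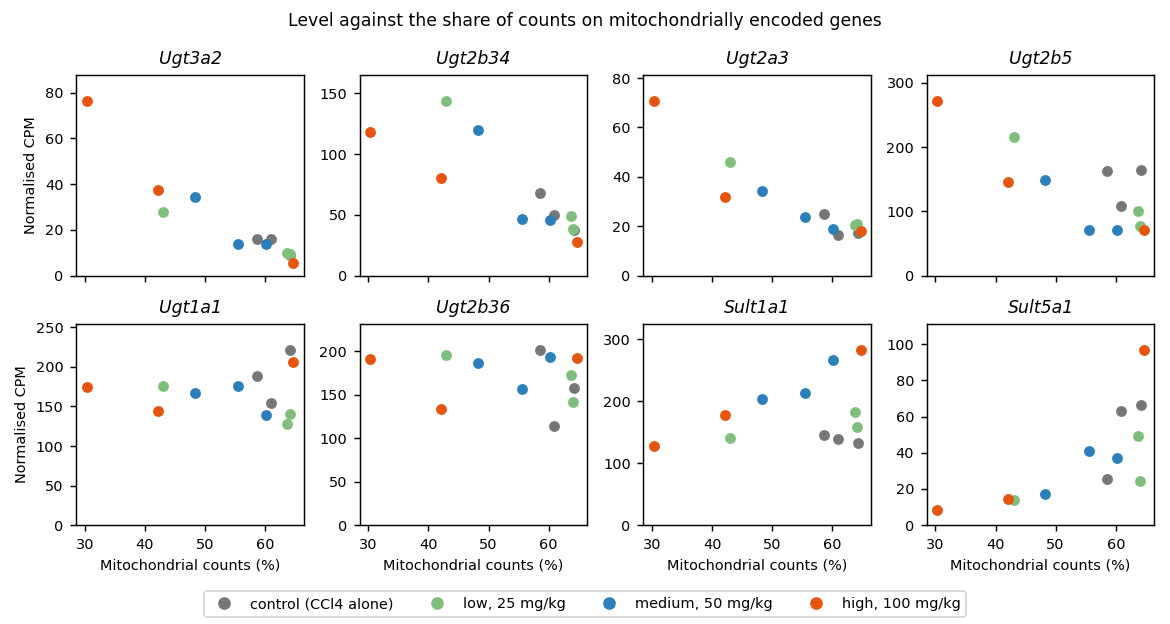
Normalised CPM of 8 genes against the percentage of counts on mitochondrially encoded genes, 1 point per liver coloured by group. Ugt3a2, Ugt2b34 and Ugt2a3 are higher and Sult5a1 lower in the 4 livers at the left (30.3% to 48.3%) than in the other 8, Ugt2b5 overlaps there, and Ugt1a1 and Ugt2b36 stay within 114 to 221 on the vertical axis.

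The 250 bases before the transcription start were read for 36 of the 42 genes (39 RefSeq windows, GRCm38.p6). The motif of the hepatocyte factor HNF1, searched on both strands, was in 8 windows (20.51%), against 0.37% of 32851 windows of the same length. They belong to Ugt1a1, Ugt1a9, Ugt1a10, Sult1d1, Sult2a3, Sult2a4, Sult2a5 and Sult2a6. Around the match the windows of Sult2a3 to Sult2a6 are close copies of one another, as are those of Ugt1a9 and Ugt1a10. The 8 windows are therefore not independent, and the percentage counts copies of the same stretch more than once. GCGTG, the core of the element bound by the aryl hydrocarbon receptor, was in 12.82% of the 39 windows, against 28.16% of all, and TGACNNNGC, the core of the antioxidant response element, in 0 of 39, against 10.16% of all. Base composition was not matched between the 39 windows and all windows, and copied stretches weigh on these counts too. The lower percentages can therefore not be read as a lack of either element. The windows below are those of Ugt1a1, of Ugt1a9 from the same locus, of Sult1d1 as the most abundant Sult with the motif and of Sult2a5 as 1 of the Sult2a copies. They are in the gene's own direction, with the letters of the HNF1 match in capitals on whichever strand it lay, and for Sult1d1 also the reverse complement of GCGTG. Their positions are chr1:88211709-88211958 (+) for Ugt1a1, chr1:88070529-88070778 (+) for Ugt1a9, chr5:87569007-87569256 (-) for Sult1d1 and chr7:13623717-13623966 (+) for Sult2a5.
Ugt1a1: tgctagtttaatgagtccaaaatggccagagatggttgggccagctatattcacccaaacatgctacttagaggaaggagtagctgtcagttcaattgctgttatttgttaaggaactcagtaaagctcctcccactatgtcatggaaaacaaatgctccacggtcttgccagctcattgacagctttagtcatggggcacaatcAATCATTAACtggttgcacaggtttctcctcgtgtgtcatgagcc
Ugt1a9: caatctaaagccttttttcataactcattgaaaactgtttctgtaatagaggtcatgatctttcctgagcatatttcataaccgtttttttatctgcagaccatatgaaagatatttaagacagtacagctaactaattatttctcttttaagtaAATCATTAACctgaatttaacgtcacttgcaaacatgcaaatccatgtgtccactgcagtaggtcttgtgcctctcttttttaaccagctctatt
Sult1d1: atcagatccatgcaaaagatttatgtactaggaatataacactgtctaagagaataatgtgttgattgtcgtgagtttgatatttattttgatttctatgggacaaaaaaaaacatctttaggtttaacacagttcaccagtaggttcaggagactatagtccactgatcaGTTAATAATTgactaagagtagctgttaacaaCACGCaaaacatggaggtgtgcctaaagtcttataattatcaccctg
Sult2a5: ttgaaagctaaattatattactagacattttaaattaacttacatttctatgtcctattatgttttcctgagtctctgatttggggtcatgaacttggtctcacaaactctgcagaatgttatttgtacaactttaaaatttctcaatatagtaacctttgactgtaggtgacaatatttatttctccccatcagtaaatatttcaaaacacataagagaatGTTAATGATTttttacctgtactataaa
The motif began 45 bases before the start of Ugt1a1, 95 before that of Ugt1a9, 79 before that of Sult1d1 and 28 before that of Sult2a5. A match is a description of letters and says nothing of binding.

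Genes that supply, move or control the conjugation were followed from lists. In the 3 doses together against control, 0 of 5 genes of UDP-glucuronate supply, 0 of 8 of PAPS supply, 0 of 4 of conjugate hydrolysis, 0 of 13 conjugate transporters, 0 of 15 regulators, 0 of 14 receptor targets and 0 of 13 sex-biased liver genes passed, as for all genes (0%). In the first 6 of these lists the smallest p in that comparison belonged to Slc35d2 (a nucleotide sugar transporter), Slc26a1 (a sulfate transporter), Gusb (β-glucuronidase), Abcc1 (an exporter of conjugates), Rxra (a partner of nuclear receptors) and Cyp2b10 (a target of the receptor CAR). Slc35d2 had 8.49, 10.1 and 9.56 normalised CPM in high livers, against 17.8, 19.6 and 20.2 in control livers. The groups did not overlap, and the log2 difference was -1.04 ± 0.22 (SE, adjusted p = 0.32 by edgeR). Whether Slc35d2 carries UDP-glucuronate was not examined here. For the 3 doses together the other 5 lay between -0.50 and 1.43 on the log2 scale, with adjusted p of 0.485 or more by edgeR. With the mitochondrial share, 7 of 14 receptor targets fell and 0 rose, against 15.7% and 12.5% of all genes, and 5 of 15 regulators rose and 1 fell. The other lists had calls as well. Of UDP-glucuronate supply 1 of 5 fell, of PAPS supply 3 of 8 fell and 1 rose, and of conjugate hydrolysis 2 of 4 fell. Of the transporters 1 of 13 fell and 3 rose, and of the sex-biased genes 4 of 13 fell and 3 rose.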

How the data were processed

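The authors deposited 1 table of raw gene counts, whole numbers per Ensembl ID with 1 column per library. Reads had been handled with fastp (0.23.4), STAR (2.7.10b) and StringTie (2.2.1) and the build mm39, per the submitters' processing notes. The step that counted reads, its strand setting and its handling of multiply matching reads are not given in the sources used here. Symbols, transcript lengths and coding sequences came from GENCODE M21 (the longest coding sequence per gene) and promoters from RefSeq GRCm38.p6, both of another build, so no member is placed on mm39. Of 56923 IDs, 52073 (91.5%) had a symbol, and IDs without one held 0.812% of counts. Libraries of a group differed beyond sampling noise (chi-square per degree of freedom at least 42.0).

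Tests used edgeR 4.0.16 in R 4.3.3: filterByExpr (16839 genes), TMM, robust quasi-likelihood fits of all 12 libraries, and Benjamini-Hochberg adjustment over all genes at 0.05. Comparisons were each dose, the mean of the 3 doses and a slope on dose (printed over 100 mg/kg), all against the same control livers, and a slope on the mitochondrial share with group in the fit. DESeq2 1.42.0, other scalings, no filter, a replicate block, the mitochondrial share as covariate and leaving out each library were alternatives. The fit was tested on simulated data. Values were named by rule: genes past the threshold, or the 5 with the smallest p, plus Ugt1a1 and Sult1a1; from each pathway list, the gene with the smallest p (1 such gene is not reported here). Other values were chosen after seeing them. The members and lists were chosen with earlier results of these data known. Replicates are different mice by the labels' term, and p-values measure only the spread between these samples. Correlations of the deviations of same-numbered livers ran from -0.257 to 0.445, and 5 of 18 were over 0.1, so the numbers were not taken as pairs.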

Additional observations from a re-analysis of the deposited data

How the results depend on the processing

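DESeq2 called 42, 89, 172, 165 and 64 of the 16839 genes in low, medium, high, the 3 doses together and the slope on dose. Of the 32 members it called 1 (Ugt1a7c) in high and the same 1 in the slope, where edgeR called 0. With no filter, 3 genes were called for the doses together. Without the 4 libraries under 50% mitochondrial counts, an alternative chosen after seeing the data, the called genes were 3, 7, 6, 3 and 1, with 0 members. Leaving out 1 library gave 0 to 2 genes in low, 0 to 1 for the doses together and 0 in the rest, with 0 members throughout. For the mitochondrial share the genes called were 4753 in the fit used, 10473 with library totals, 3017 with the replicate block and 1 without those 4 libraries, and 1827 (without high replicate 2) to 4737 with 1 library left out; the members were 14, 20, 9 and 0, and 7 to 14. The replicate block ended the calls of Sult1a1 (adjusted p = 0.0708 by edgeR), Ugt2b37 (0.0818), Sult1b1, Sult2a8, Sult3a1 and Ugt2b38, kept 8 of the 14, and changed no call in the curcumin comparisons. Library totals moved the median of all genes by 0.68 at the high dose and by -0.51 per 10 points of the share. Ugt1a1, whose values are near 0, reversed most often: to 0.26, 0.54, 0.22 and 0.62 (medium, high, doses together, slope) with library totals, to 0.0046 with no filter (slope), to 0.13 and 0.074 without the 4 libraries (high, slope), and for the share to 0.0039 with DESeq2 size factors, 0.004 with DESeq2 and 0.018 without the 4 libraries. With 1 library left out, Ugt1a1 ran from -0.24 to 0.026 at the high dose and from -0.19 to 0.12 in the slope, and from -0.17 to 0.072 for the share. The dose slopes of Ugt3a2 and Ugt2a3 reversed to -0.54 and -0.12 with the share in the fit, and to -0.86 and -0.028 without the 4 libraries. Sult1a1 reversed to -0.26 with library totals, and Ugt2b37 to 0.48 without the 4 libraries, both for the share; with no filter Sult1a1 lost its call there (adjusted p = 0.052 by edgeR). The cause of these changes was not tested, except that leaving libraries out leaves fewer samples and a narrower range of the share. Sult1e1 and Sult2a4 had few counts, at most 72 and 93 in any library, and 10 members had too few to be tested.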
